A study of Mus musculus with 6 samples.

Results

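The enzymes described here are the 6 that make up the urea cycle and its switch (Nags, Cps1, Otc, Ass1, Asl and Arg1) and 4 further enzymes of amino acid use (Glud1, Hal, Sds and Tat). They were taken by symbol from a table of 26608 gene symbols, and all 10 were present and were deep enough to be tested. The table came from RNA sequencing of whole liver from 6 mice aged 6 weeks, with 3 LiK and 3 LiKM mice. The labels do not explain these genotype names. In the published study, both genotypes share an engineered change in hepatocytes, made by Cre under the albumin promoter, and LiKM mice also lack Mdm2 in hepatocytes. The LiK livers are therefore not normal livers, and no mice without the shared change were analysed here. Each library is called by its genotype and the number in its title, from LiK 1 to LiKM 3.

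The liver turns ammonia, which is toxic, into urea. The cycle runs mainly in periportal hepatocytes, the cells nearest the incoming portal blood, and starts in the mitochondrion, where Nags makes N-acetylglutamate, the activator that Cps1 needs to join ammonia and bicarbonate. Otc then makes citrulline, Ass1 and Asl turn it into arginine in the cytosol, and Arg1 splits arginine into urea and ornithine. Glud1 releases ammonia from glutamate, Hal and Sds take the amino group off histidine and serine, and Tat takes that off tyrosine. Genes of this group are known to answer to glucagon, glucocorticoids and protein intake, and Tat is a classic glucocorticoid target.

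The genotypes were compared with edgeR's quasi-likelihood test over the 13537 genes that passed a filter on low counts, and a gene was called where its p, adjusted by Benjamini-Hochberg over those genes, was under 0.05. In this test 0 of the 10 enzymes were called, while 5.92% of all genes tested were called in either direction, 5.11% higher and 0.813% lower in LiKM. At an unadjusted p under 0.05 the count was 1 of 10 (Arg1), beside 3032 of all 13537 genes. DESeq2 and limma-voom also called 0 of the 10. All 10 fitted log2 fold changes of LiKM against LiK were below 0, except that Nags (0.0057) and Glud1 (0.075) lay above it under library totals alone, and Nags (0.052), Glud1 (0.12) and Hal (0.0057) when the libraries were scaled on hepatocyte markers. Their median was -0.24, against -0.003 over all genes tested. Those other scalings moved the median of all genes to 0.16 and 0.20, so that the enzymes stayed below the other genes by median (-0.069 and -0.020). A value below 0 was common among abundant genes: 76.3% of the 1779 genes at least as abundant as the scarcest of the 10 enzymes had one, and their median was -0.15. In bulk liver, fewer hepatocytes and less RNA per hepatocyte cannot be told apart.

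**Figure D1:**
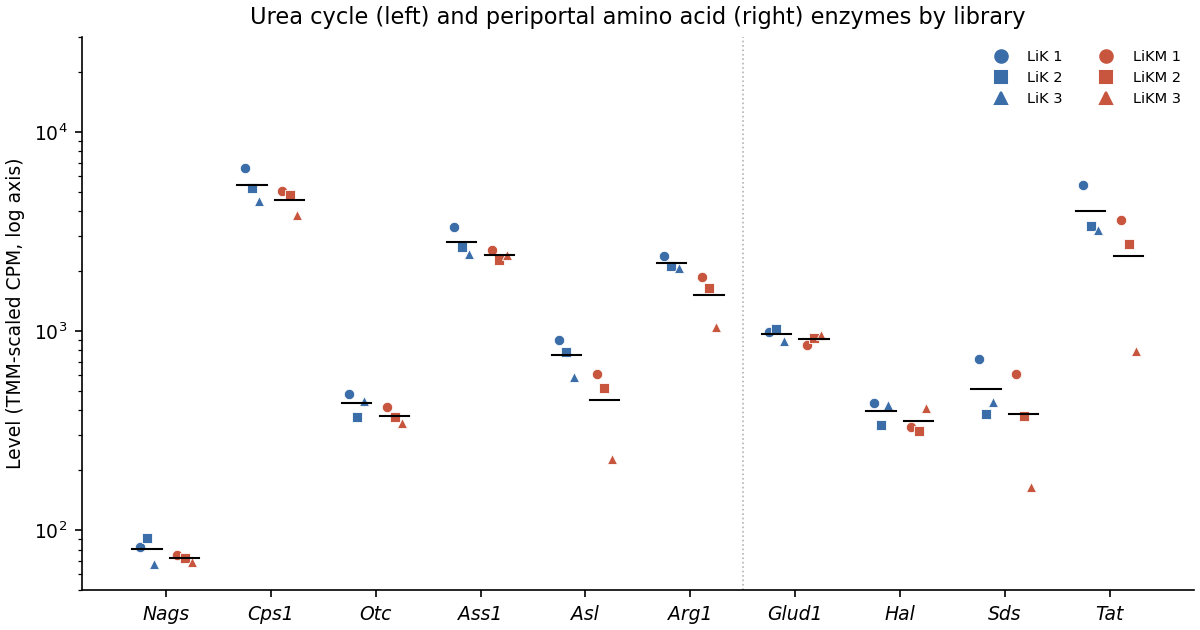
Level of each enzyme in every library, in CPM after TMM scaling on a log axis, with circles, squares and triangles for mice 1, 2 and 3 of LiK (blue) and LiKM (red) and a black line for each genotype mean. The red triangle of LiKM 3 lies far below the other libraries for Tat (794 CPM), Sds (165 CPM), Asl (227 CPM) and Arg1 (1046 CPM) but not for Ass1, Glud1 or Hal.

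Libraries held 19909993 to 24874343 counts over 16847 to 17472 detected genes, and levels are given in CPM, that is as counts set to the same library size, with the TMM correction of library sizes for differences in composition. Every pair of libraries within a genotype differed by more than sampling noise (chi-square per gene 37.0 to 127), and the labels give each animal its own code. Mdm2 stood at 28.7, 29.0 and 28.6 CPM in LiK and at 122, 125 and 60.5 CPM in LiKM, a log2 fold change of 1.83 (SE 0.27, adjusted p = 0.0196, edgeR). A count per gene sums all exons and does not check whether a part of Mdm2 was deleted in the libraries labelled LiKM. Trp53, which encodes p53, the protein that Mdm2 holds down, was not called (0.22, SE 0.20). LiKM 3 stood apart from LiKM 1 and LiKM 2 in several of the genes below, so results that rest on it are also given without it.

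To show how unlike the start regions of the enzymes are, the 250 bases before the start site are printed for Tat, whose level varied most between libraries, and for Glud1, whose level varied least. They are read 5′ to 3′ from the RefSeq table for GRCm38.p6, on the plus strand in both cases, at chr8:109990186-109990435 for Tat and chr14:34310477-34310726 for Glud1. Capitals mark the CCAAT box in Tat (CCAAT, or ATTGG on the other strand) and the GC box in Glud1 (GGGCGG, or CCGCCC on the other strand).
Tat: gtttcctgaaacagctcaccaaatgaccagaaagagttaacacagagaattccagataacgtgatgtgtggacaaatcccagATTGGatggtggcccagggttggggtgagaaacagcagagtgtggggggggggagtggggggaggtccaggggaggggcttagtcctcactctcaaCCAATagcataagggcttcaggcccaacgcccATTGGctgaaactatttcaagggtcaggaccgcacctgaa
Glud1: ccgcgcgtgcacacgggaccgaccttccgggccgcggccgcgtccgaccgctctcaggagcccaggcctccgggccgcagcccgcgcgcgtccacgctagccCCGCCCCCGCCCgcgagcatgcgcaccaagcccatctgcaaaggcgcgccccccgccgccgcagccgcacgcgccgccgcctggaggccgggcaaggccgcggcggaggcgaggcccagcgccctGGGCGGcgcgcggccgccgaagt
Windows of 300 bases, from 250 before to 50 after the start, were searched on both strands for 6 of the 10 enzymes, since Cps1, Asl, Arg1 and Sds had no entry in the table. Tat held 3 CCAAT boxes, which begin 168, 72 and 40 bases before the start, and 0 GC boxes. Glud1 held 3 GC boxes, 148, 142 and 23 bases before the start, the first pair side by side, and 0 CCAAT boxes. Among all 32851 windows, 37.4% held a CCAAT box and 35.7% a GC box, so both are common letters. The Glud1 window was 81% G and C with 51 CpG dinucleotides, and the Tat window 53.67% with 5, against medians of 52.67% and 7 over all windows. The core letters of the glucocorticoid receptor site (TGTTCT, in 19% of windows) and the p53 decamer (in 8.36% of windows) had no match in any of the 6 windows, which says only that these letters are not in that stretch.

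Nags, the enzyme that makes the activator of Cps1, was the scarcest of the group. It stood at 82.4, 91.7 and 67.7 CPM in LiK 1, 2 and 3 and at 74.9, 72.6 and 69.5 CPM in LiKM 1, 2 and 3. LiK 3 was the lowest library, so the genotypes overlapped. The log2 fold change was -0.16 (SE 0.13, 95% interval -0.46 to 0.15, adjusted p = 0.522). In the GENCODE M21 annotation 15.6% of the Nags exon bases overlap an antisense gene, Gm11586, and the strand setting of the counting is not given in the sources used, so reads of this pair may be mixed.

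Cps1, which commits ammonia to the cycle, had the highest count of the 10 enzymes. Its level was 6607, 5202 and 4495 CPM in LiK and 5043, 4790.0 and 3825 CPM in LiKM. LiK 1 was the highest and LiKM 3 the lowest, with LiK 3 below LiKM 1 and LiKM 2. The log2 fold change of -0.26 (SE 0.20, interval -0.73 to 0.22) did not pass (adjusted p = 0.504), and it was -0.17 without LiKM 3 and -0.09 without LiK 1.

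Otc, the second mitochondrial enzyme, is encoded on the X chromosome. It was measured at 485, 372 and 447 CPM in LiK and at 415, 369.9 and 344 CPM in LiKM. The LiK 2 value lay among those of LiKM, and the difference of -0.21 (SE 0.14, interval -0.54 to 0.13) was not called (adjusted p = 0.437). Ass1, which joins citrulline to aspartate, was at 3330.2, 2628 and 2435 CPM in LiK and 2546, 2284 and 2398 CPM in LiKM. Its 3 LiKM libraries lay close together, at 2409 ± 131 CPM (SD, n = 3), and LiKM 3 was not the lowest. Its log2 fold change was -0.22 (SE 0.16, interval -0.60 to 0.17, adjusted p = 0.486).

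Asl, which releases arginine and fumarate, varied more than the enzymes before it in the cycle. Asl stood at 902, 789 and 584 CPM in LiK and at 607, 516 and 227 CPM in LiKM. A single pair crossed, LiK 3 below LiKM 1, and LiKM 3 held 40.4% of the mean of LiKM 1 and LiKM 2. Its log2 fold change of -0.75 (SE 0.35, interval -1.58 to 0.08) was, with that of Tat, the most negative of the 10, and the adjusted p was 0.267. Leaving out LiKM 3 brought it to -0.45, while leaving out LiKM 1 brought it to -1.06, and neither was called.

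Arg1, the last enzyme of the cycle, was the only one of the 10 whose genotypes did not overlap. It was measured at 2386, 2118 and 2080.3 CPM in LiK and at 1862, 1643 and 1046 CPM in LiKM. All LiKM libraries lay below all LiK libraries in 11.8% of the genes tested and in 27.2% of the 1779 abundant genes, so 1 of 10 is above neither share. The log2 fold change was -0.53 (SE 0.22, interval -1.06 to -0.01), with an unadjusted p of 0.0473 and 0.216 after adjustment (edgeR). Without LiKM 3 it was -0.34 (adjusted p = 0.277). Arg2, the second arginase gene, had 3 to 8 counts per library and was not tested.

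Among the 4 amino acid enzymes, Glud1 was the steadiest. Glud1 stood at 988, 1020.1 and 889 CPM in LiK and at 847, 922 and 959 CPM in LiKM, a spread of 1.21 times from lowest to highest. The genotypes overlapped, and the log2 fold change was -0.09 (SE 0.13, interval -0.38 to 0.21, adjusted p = 0.721). A processed pseudogene, Glud-ps, is annotated, and no source used here says how the counting treated reads that fit both.

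Hal, the first enzyme of histidine breakdown, was at 436, 336 and 423 CPM in LiK and at 329.9, 315 and 409 CPM in LiKM. Here LiKM 3 was the highest of its genotype, at 127% of the mean of LiKM 1 and LiKM 2. The difference of -0.18 (SE 0.16, interval -0.55 to 0.19) was not called (adjusted p = 0.546).

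Sds, which makes pyruvate from serine, differed as much between mice of a genotype as between genotypes. Its level was 719.7, 383 and 440.3 CPM in LiK and 607, 375 and 165 CPM in LiKM. LiKM 1 lay above LiK 2 and LiK 3, and LiKM 3 held 33.7% of the mean of the other LiKM libraries. The log2 fold change of -0.43 (SE 0.45, interval -1.49 to 0.64, adjusted p = 0.621) was -0.09 without LiKM 3, -0.11 without LiK 1 and -0.96 without LiKM 1. Of the Sds exon bases, 21.3% overlap Plbd2 and 8.32% overlap Gm15690, both on the other strand. Plbd2 itself stood at 125, 132 and 102 CPM in LiK and at 89.4, 100.1 and 83.1 CPM in LiKM, so LiKM 3 was less far below the rest there than for Sds.

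Tat, the tyrosine aminotransferase, varied most of the 10. It was at 5431, 3374 and 3198 CPM in LiK and at 3625, 2737 and 794 CPM in LiKM. LiKM 1 lay above LiK 2 and LiK 3, and LiK 1 held 6.84 times the level of LiKM 3. The median gene at least as abundant as the scarcest enzyme spanned 1.44 times over the 6 libraries. Its log2 fold change was -0.75 (SE 0.51, interval -1.94 to 0.45, adjusted p = 0.436), with -0.35 when LiKM 3 was left out and -1.21 when LiKM 1 was left out.

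**Figure D2:**
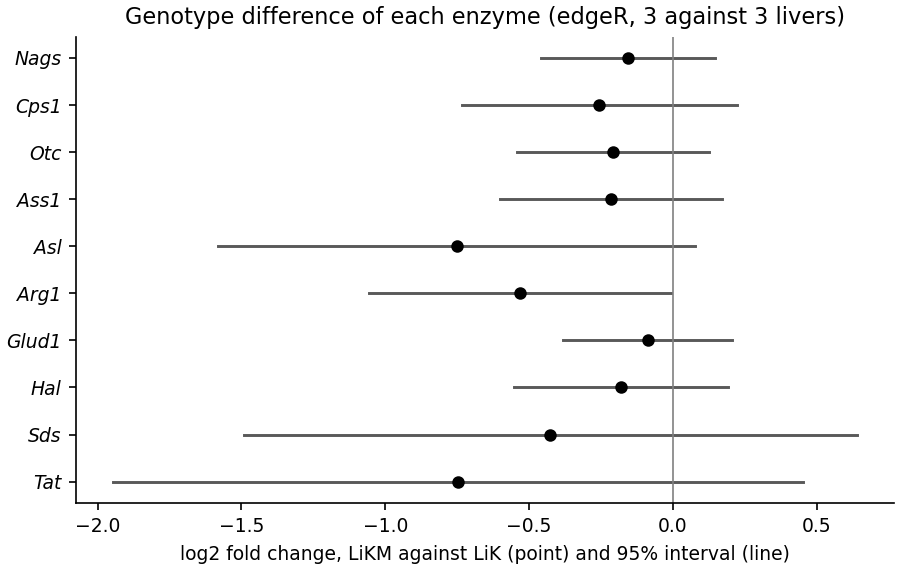
Fitted log2 fold change of LiKM against LiK for each enzyme (point) with its 95% interval (line), from edgeR over 3 livers of each genotype. All points lie left of 0 under TMM scaling (Nags and Glud1 do not under library totals, nor Nags, Glud1 and Hal under scaling on hepatocyte markers), and the widest interval is that of Tat (-1.94 to 0.45).

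The intervals show which sizes of change these 6 livers leave within range. For Glud1 the interval ran from -0.38 to 0.21 on the log2 scale and for Nags from -0.46 to 0.15. For Tat it ran from -1.94 to 0.45, so that neither no change nor a large fall lay outside it.

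The summed share of all counts gives the output of the group without a model per gene. The 10 enzymes took 1.93%, 1.56% and 1.48% of counts in LiK and 1.64%, 1.55% and 1.06% in LiKM. The means were 1.65% ± 0.241 and 1.42% ± 0.310 (SD, n = 3 each), and an exact two-sided permutation test gave p = 0.5, where 3 against 3 cannot go below 0.1. The 6 enzymes of the urea cycle took 1.25%, 1.07% and 0.990% in LiK and 1.08%, 1.07% and 0.821% in LiKM (exact permutation p = 0.5). Without LiKM 3 the difference for the 10 enzymes shrank from -0.24 to -0.061 percentage points, and without LiK 1 to -0.10.

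Much of the variation lay in LiKM 3 and LiK 1. LiKM 3 was the lowest of the 6 libraries for 6 of the 10 enzymes, beside 21.5% of all genes tested and 34.7% of the 1779 abundant genes. LiK 1 was the highest for 8 of 10, beside 20.1% of all genes and 34.9% of the abundant ones. Set against the mean of LiKM 1 and LiKM 2, LiKM 3 held 24.96% of Tat, 33.7% of Sds, 40.4% of Asl and 59.7% of Arg1. Of the abundant genes, 0.956% had a lower ratio than Tat, 1.52% than Sds, 2.08% than Asl and 6.07% than Arg1. The other 6 enzymes lay between 77.8% (Cps1) and 127% (Hal), with Otc at 87.6%, Nags at 94.3%, Ass1 at 99.3% and Glud1 at 108%. In all, 4 of the 10 enzymes were below 75% in this mouse, beside 12.8% of the abundant genes. This mouse was singled out after the values were seen, and these shares are a description with no test.

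Within the cycle the enzymes did not keep to 1 ratio. For every 100 counts of Ass1 there were 27.1, 30.0 and 24.0 counts of Asl in LiK and 23.9, 22.6 and 9.47 in LiKM. The genotypes did not overlap, with LiKM 1 just below LiK 3, and the exact permutation p of 0.1, the smallest that 3 against 3 can give, became 0.5 after Benjamini-Hochberg adjustment over 5 ratios. The difference of -8.39 became -3.80 without LiKM 3. Arg1 per 100 counts of Ass1 was 71.6, 80.6 and 85.4 in LiK and 73.1, 72.0 and 43.6 in LiKM. In that ratio the genotypes overlapped (exact permutation p = 0.3, adjusted 0.5), and the difference of -16.3 became -6.67 without LiKM 3. Arg1 per Asl gave the same exact permutation p, with a difference of 65.4 that became 16.1 without LiKM 3, and Otc per Cps1 and Ass1 per Otc each gave 0.9. The 5 ratios were chosen after the data were seen.

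Set per kilobase of exon, so that genes of unlike length can be compared, Tat led the LiK mean at 1664 CPM per kb, followed by Ass1 (1159), Arg1 (985) and Cps1 (978). Sds (304), Glud1 (229), Asl (157), Otc (103), Hal (71.8) and Nags (28.4) followed on the same scale. The lengths are those of the GENCODE M21 gene models, and no source used here names the annotation behind the counting. The order held in all 6 libraries for Ass1 above Arg1, Cps1 above Sds, Glud1 above Asl, Otc above Hal and Hal above Nags. Arg1 lay above Cps1 in 2 of the 6 libraries and Sds above Glud1 in 4, so the members of these pairs were not ordered beyond their spread. Tat lay above Ass1, and Asl above Otc, in 5 of 6, with LiKM 3 the exception in both pairs. There Tat, at 330.1 CPM per kb, came after Ass1, Cps1 and Arg1.

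Genes that answer to glucocorticoids, glucagon, fasting or the daily clock were read beside the enzymes, since Tat, Sds and the urea cycle genes are known to answer to the same signals. Of 28 tested genes of this list, 0 rose and 1 fell, with a median of -0.47. The median was -0.36 without LiKM 3, -0.30 without LiK 1, -0.51 without LiKM 1 and -0.25 under scaling on hepatocyte markers. The gene that fell was Gcgr, the glucagon receptor, from 294, 330.5 and 337 CPM in LiK to 234, 229 and 230.1 CPM in LiKM. Its log2 fold change was -0.47 (SE 0.11, adjusted p = 0.0479, edgeR's quasi-likelihood test), and it was called in 0 of the 6 fits that left out 1 library. Those fits leave 2 mice in 1 genotype and called 1 to 101 genes lower, against 110 with all libraries. In them the log2 fold change of Gcgr ranged from -0.53 to -0.44. The Gcgr call was also lost under upper quartile scaling (-0.45, adjusted p = 0.0602), library totals (-0.32, 0.170), scaling on hepatocyte markers (-0.28, 0.414) and with no filter (-0.48, 0.0639), all in edgeR. Across the 28 genes, 8 had an unadjusted p under 0.05 in edgeR, beside 3032 of all 13537 genes tested. DESeq2 called 4 genes of the list lower and limma-voom 2. Unlike the 4 enzymes that were low in LiKM 3, Gcgr was almost level across the LiKM mice. Nr3c1, the glucocorticoid receptor, was not called (96.1 ± 4.31 against 83.4 ± 6.55 CPM, SD, n = 3 each).

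LiKM 3 was the lowest library for 15 of the 28 genes, beside 21.5% of all genes tested and 34.7% of the abundant genes. It was the highest for others of the list, and the examples here were chosen after their values were seen. Tsc22d3, a glucocorticoid target also called Gilz, stood at 387, 285 and 319 CPM in LiK and at 277, 312 and 50.6 CPM in LiKM. Per1, a clock gene that glucocorticoids induce, was at 113, 75.3 and 94.0 CPM in LiK and 74.6, 78.2 and 10.2 CPM in LiKM. Klf15, a regulator of amino acid breakdown, was at 367, 233 and 297 CPM in LiK and 240.4, 204 and 64.9 CPM in LiKM. In each of these, LiKM 1 and LiKM 2 lay within or near the LiK range and LiKM 3 far below it. Hlf, a clock output gene, was at 86.3, 79.5 and 72.35 CPM in LiK and at 77.6, 83.5 and 23.6 CPM in LiKM. Irs2, an insulin receptor substrate that fasting raises, went the other way, with 47.9 CPM in LiKM 3 against 2.72 to 11.5 CPM in the other 5 libraries. G6pc and Igfbp1, genes of glucose release and fasting, were also high there, at 422% and 383% of the mean of LiKM 1 and LiKM 2. Not every glucocorticoid target was low in LiKM 3: the metallothioneins Mt1 and Mt2 stood at 116% and 177% of that mean. Fkbp5, another such target, was at 35.5 CPM in LiKM 3 but also at 68.2 CPM in LiK 3, against 314 CPM in LiK 1. Of Tsc22d3, Per1, Klf15, Hlf and Irs2 none was called, and without LiKM 3 their log2 fold changes were -0.19 (Tsc22d3), -0.32 (Per1), -0.45 (Klf15), 0.0004 (Hlf) and -1.11 (Irs2). No source used here gives the time of day or the feeding state at collection, and the part of such signals in the enzyme levels was not tested.

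**Figure D3:**
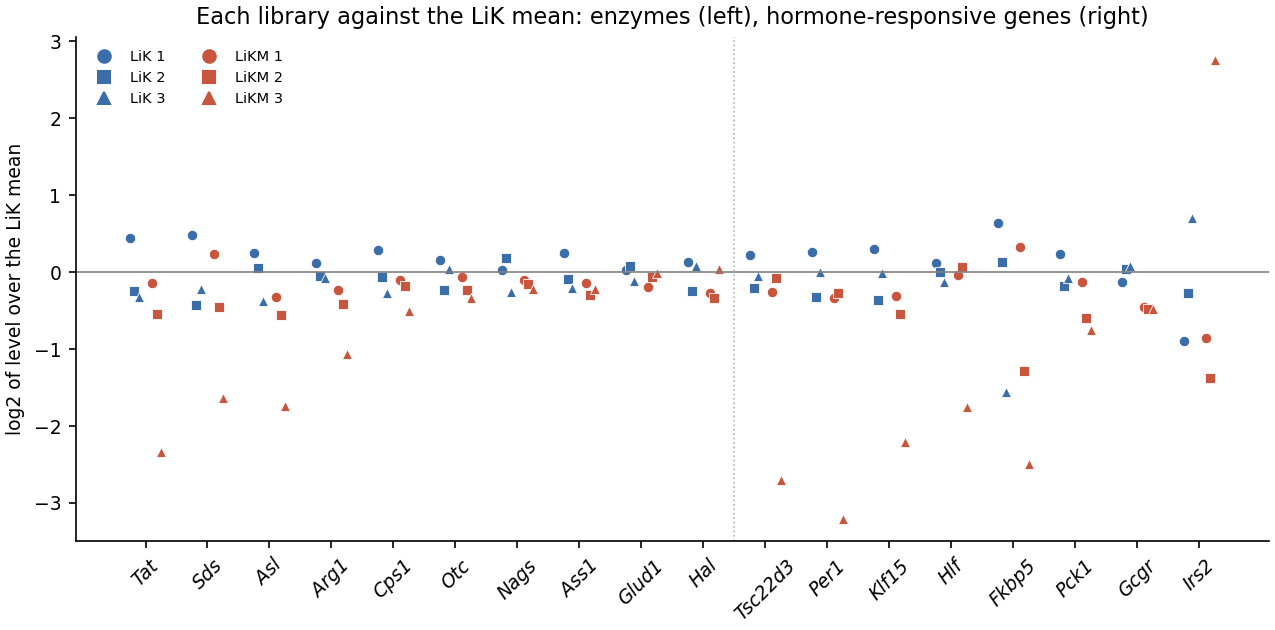
Level of each gene in every library as a log2 ratio to the LiK mean, for the 10 enzymes (left of the dotted line, ordered by their value in LiKM 3 against LiKM 1 and LiKM 2) and for 8 hormone-responsive genes chosen after their values were seen (right). LiKM 3 (red triangles) is the lowest library for Tat, Sds, Asl and Arg1 and for Tsc22d3, Per1 and Klf15, while Gcgr is alike in the 3 LiKM mice and Irs2 is highest in LiKM 3 (47.9 CPM).

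Genes of nitrogen supply, use and transport around the cycle were next. Of 21 tested genes of nitrogen supply and transport, 0 rose and 1 fell, 20 had a negative log2 fold change under TMM scaling, and the median was -0.35. The gene that fell was Slc38a4, an amino acid transporter of the hepatocyte membrane, from 1056, 967 and 1349 CPM in LiK to 751, 558 and 605 CPM in LiKM (log2 fold change -0.82, SE 0.18, adjusted p = 0.0469, edgeR). All LiKM values lay below all LiK values, and the call was lost in all 6 fits that left out 1 library, under upper quartile scaling (adjusted p = 0.0512), library totals (0.0673) and scaling on hepatocyte markers (0.12). In the 6 fits without 1 library, which leave 2 mice in 1 genotype, its log2 fold change ranged from -0.98 to -0.67. Of this supply list, 7 genes had an unadjusted p under 0.05 in edgeR, beside 3032 of all 13537 genes tested. DESeq2 called 4 genes of the list lower and limma-voom 3. Got1, the cytosolic aspartate aminotransferase, and Glul, glutamine synthetase, are named outside the naming rule, after their values were seen. Glul also stands in the list of pericentral markers. Got1 was at 499, 352 and 353 CPM in LiK and 243, 148 and 221 CPM in LiKM, and Glul at 871, 702 and 674 CPM and 499, 274 and 388 CPM. Both had groups that did not overlap, and neither was called (log2 fold change -0.98, adjusted p = 0.052, and -0.95, adjusted p = 0.0587, edgeR). Of the 21 genes, 7 had all LiKM libraries below all LiK libraries, beside 11.8% of all genes tested and 27.2% of the abundant genes.

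Polyamine genes, which use the ornithine that Arg1 releases, gave 1 higher and 0 lower call among 11 tested (median -0.06, but 0.10 under library totals and 0.16 under scaling on hepatocyte markers). Sat1, which acetylates polyamines for breakdown or export, rose from 47.6, 52.1 and 46.6 CPM to 70.6, 65.7 and 83.8 CPM (log2 fold change 0.59, SE 0.12, adjusted p = 0.0396, edgeR). The Sat1 call was lost in all 6 fits that left out 1 library, although the groups lay well apart. Its log2 fold change ranged from 0.46 to 0.64 in those fits, which leave 2 mice in 1 genotype. Other routes of amino acid breakdown gave few calls. Tryptophan and lysine breakdown had 0 higher and 2 lower of 13 tested (median -0.43): Dhtkd1, of the lysine route, fell from 52.4 ± 2.79 to 34.3 ± 3.21 CPM (-0.61, SE 0.11, adjusted p = 0.0286), and Ido2, of the tryptophan route, from 129.9 ± 20.8 to 78.9 ± 7.94 CPM (-0.72, SE 0.15, adjusted p = 0.0395, SD, n = 3 each, edgeR). Each of these calls held in 1 of the 6 fits that left out 1 library. Both were lost under library totals (Dhtkd1 adjusted p = 0.0676, Ido2 0.0541) and scaling on hepatocyte markers (0.229 and 0.123), with both genes still below 0. In the tryptophan and lysine list, 6 genes had an unadjusted p under 0.05 in edgeR, beside 3032 of all 13537 genes tested. DESeq2 called 4 genes of that list lower and limma-voom 3. The routes of histidine and folate (0 of 5 called, median -0.21), serine, glycine and threonine (0 of 16, median -0.21), phenylalanine and tyrosine (0 of 7, median -0.31) and proline and branched-chain amino acids (0 of 17, median -0.21) gave 0 calls in edgeR. At an unadjusted p under 0.05 these 4 lists held 1, 3, 3 and 6 genes, again beside 3032 of all 13537 genes tested. DESeq2 called 1, 0, 2 and 3 lower, and limma-voom 0, 0, 0 and 1.

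In these 4 routes the most abundant genes were read by rule. In the histidine and folate route, Aldh1l1 (-0.18) and Uroc1 (-0.21) were not called. In the route that Tat opens, Hpd, the step after Tat, was at 2293, 1517 and 1624 CPM in LiK and 1545, 1076 and 949.9 CPM in LiKM. LiKM 3 was the lowest library, and Hpd was not called (-0.61). Sardh (-0.20), Dmgdh (-0.35), Aldh4a1 (-0.09) and Aldh6a1 (-0.31) of the remaining routes were not called either.

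**Figure D4:**
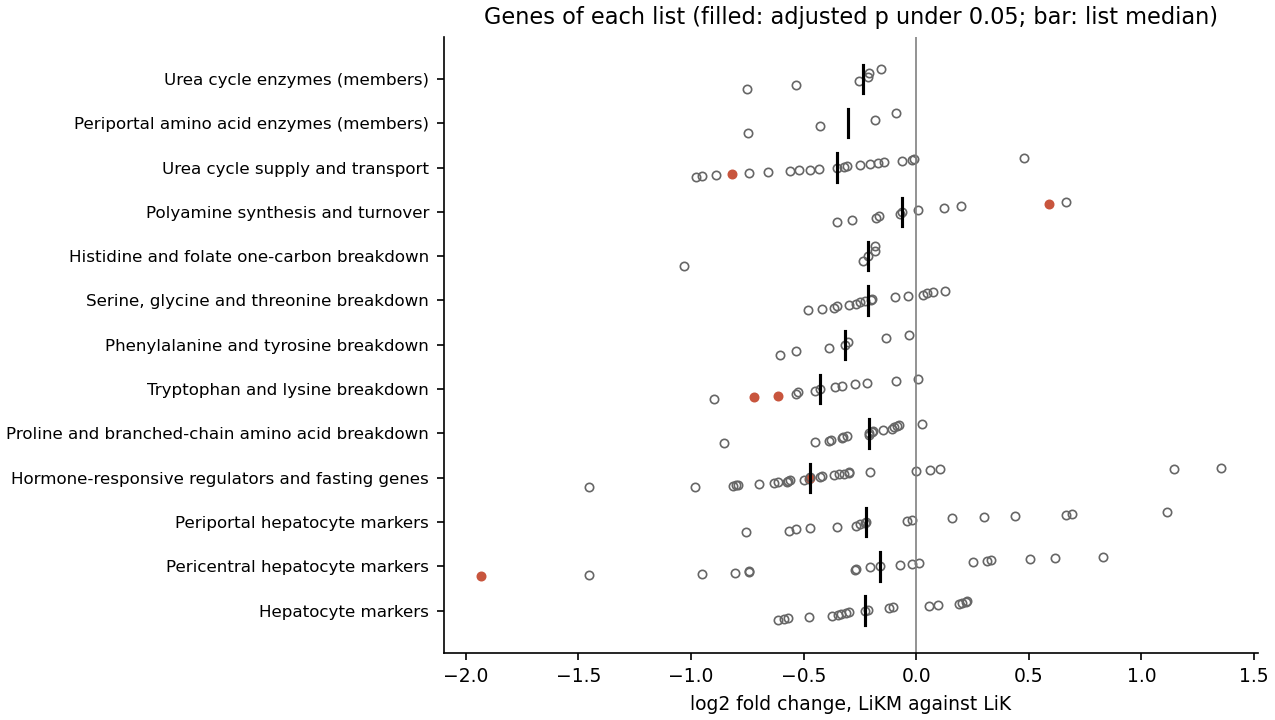
Log2 fold change of LiKM against LiK for each tested gene of the enzyme, pathway and hepatocyte marker lists, with calls (adjusted p under 0.05) filled and a black bar at each list median; points are spread vertically for legibility. The bars lie between -0.47 (hormone-responsive genes) and -0.06 (polyamine genes) under TMM scaling (scaled on hepatocyte markers, the polyamine and pericentral bars lie above 0, at 0.16 and 0.069, as they do under library totals, at 0.10 and 0.0022), and the 10 enzymes hold no filled point.

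Markers of the zones of the lobule held 1 call, with members that went both ways. Of 17 tested periportal markers 0 were called (median -0.22), and 11 had a negative log2 fold change under TMM scaling. Hpx was at -0.75 (SE 0.42), Gc at -0.04 (SE 0.15) and Sox9, which is also listed under bile duct cells, at 1.12 (SE 0.48). Of 19 pericentral markers, 0 rose and 1 fell (median -0.16, but 0.0022 and 0.069 under the same 2 scalings), namely Slc22a3, an organic cation transporter, from 4.62 ± 0.499 to 1.21 ± 0.537 CPM (-1.93, SE 0.33, adjusted p = 0.0251, SD, n = 3 each, edgeR), a call that held in 2 of the 6 fits that left out 1 library. Under TMM scaling 12 of the 19 pericentral genes had a negative log2 fold change. Among the genes not called, Slc1a2 (-1.45), Glul (-0.95), Cyp2e1 (-0.81) and Cyp27a1 (-0.74) lay below 0, and Nkd1 (0.51) and Notum (0.33) above it. All of these named genes had genotypes that did not overlap. These and Sox9 were chosen after their values were seen. Of the 19 pericentral genes, 5 had all LiKM libraries below all LiK libraries and 2 had all above. The share below was 11.8% of all genes tested and 27.2% of the abundant genes, and the share above was not counted. Of 19 general hepatocyte markers 0 were called (median -0.23), with Alb at 0.10 (SE 0.23) and Trf at -0.10 (SE 0.23). For the periportal, pericentral and hepatocyte lists, 5, 8 and 4 genes had an unadjusted p under 0.05, beside 3032 of all 13537 genes tested. In the same lists DESeq2 called 2, 5 and 1 lower, and limma-voom 1, 3 and 1. The summed level of the hepatocyte markers was 176398 to 196199 CPM in LiK and 171752 to 198712 CPM in LiKM, and its highest library was LiKM 3. In that mouse the fibrinogen genes Fga, Fgb and Fgg, known to rise in the acute-phase response, stood at 225%, 188% and 233% of the mean of LiKM 1 and LiKM 2. Without these 3 genes the sum was 176596 CPM in LiKM 3, between LiKM 2 (162548) and LiKM 1 (183498), and their part in the enzyme levels was not tested. The label of liver tissue thus had its defining markers in every library.

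Markers of 3 other cell groups held genes that rose in LiKM. Of 12 T and natural killer cell markers, 9 passed the filter on low counts and all 9 rose (median 3.02), with Cd8a at 4.10, Cd3g at 3.45, Lck at 3.02 and Il2rb at 2.31 on the log2 scale. All 12 together summed to 2.31 to 2.92 CPM in LiK and 13.96 to 20.9 CPM in LiKM. Genes this scarce in LiK can pass the filter through LiKM alone, so the share of 9 in 9 is no support by itself. The other 3 were Ncr1 (1, 2 and 1 counts in LiK and the same in LiKM), Klrb1c (3, 2 and 2 against 1, 12 and 1) and Cd2 (3, 5 and 5 against 9, 24 and 15), and with no filter 9 of 12 were called. Macrophage and monocyte markers rose in 6 of 14 tested (median 0.75), with Ctss (1.19), Cd68 (0.97), Tyrobp (0.93) and Lyz2 (0.63) among them. The sum of all 15 listed was 319 to 407 CPM in LiK and 479 to 653 CPM in LiKM. Stellate cell markers rose in 4 of 11 (median 1.02), from 243 to 398 CPM to 635 to 692 CPM, and the 4 were Col1a1 (1.57), Col3a1 (1.53), Hgf (1.38) and Dcn (1.02). Leaving out 1 library at a time gave 0 to 8 calls among the T and natural killer cell markers and 0 to 5 among each of the other groups, with 8, 5 and 3 calls without LiKM 3. These sums are small beside that of the hepatocyte markers, and their part in the enzyme levels was not tested.

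The remaining cell types gave 0 calls in edgeR. They were endothelial cells (10 tested, median 0.21, with Eng at 0.18 and Stab1 at 0.09), bile duct cells (8 tested, median 1.05, with Spp1 at 0.30) and B cells (6 tested, median 0.32, with Cd22 at 0.84). Neutrophils (3 tested, median 0.55, with Csf3r at 0.65 and S100a9 at 0.49) and red cell precursors (4 tested, median 0.47, with Alas2 at 0.04 and Hba-a2 at 0.56) were not called either. At an unadjusted p under 0.05 these 5 lists held 4, 4, 1, 0 and 1 genes, beside 3032 of all 13537 genes tested. DESeq2 called 2 bile duct markers higher, and limma-voom called 1 endothelial marker. Without LiKM 3 the medians were 0.33 (endothelial), 0.62 (bile duct), 0.14 (B cells), -0.33 (neutrophils) and 0.39 (red cell precursors). In that fit Spp1 was at 0.10, Csf3r at 0.27 and S100a9 at -0.33. Summed levels cover all listed genes found in the counts, also those too scarce to be tested. The sums were 288 to 317 CPM in LiK and 281 to 402 CPM in LiKM for endothelial markers, and 82.9 to 255 and 111 to 234 CPM for bile duct markers. For B cell markers they were 5.06 to 10.8 and 8.55 to 10.99 CPM, for neutrophil markers 4.84 to 11.3 and 6.01 to 17.9 CPM, and for red cell markers 46.1 to 149 and 117 to 140.4 CPM.

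The pattern of the cycle over the 6 libraries was compared with that of single genes by Pearson correlation, as a description. Each enzyme of the cycle was put on a common scale and the 6 were averaged. Cps1 (r = 0.963), Asl (0.942), Arg1 (0.919), Ass1 (0.847), Otc (0.773) and Nags (0.679) are part of that average. Of the enzymes outside it, Tat (0.911) and Sds (0.868) varied much as the average did, while Glud1 (0.277) and Hal (0.139) did not. Among 4054 other genes whose log2 CPM averaged 5 or more, the most alike were Txlng (0.998), Akap8 (0.997), Foxa3 (0.994), 1810008A18Rik (0.994) and Mcart1 (0.991). Foxa3, a transcription factor of hepatocytes, stood at 117, 86.1 and 74.9 CPM in LiK and at 81.6, 63.6 and 47.1 CPM in LiKM, and was not called. All these values rest on the same 6 libraries, and the highest of 4054 correlations over 6 points is high by choice.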

How the data were processed

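Poly(A) RNA libraries of liver were made with a stranded kit, per the labels' protocols, and featureCounts and FastQC 0.11.7 were used, per the submitters' processing notes. No source used here names the aligner, genome build, annotation or strand setting. The authors deposited raw counts per gene symbol, whole numbers with no normalisation. The counts were used as deposited, and 0 columns were left unused. All 6 libraries held 19909993 to 24874343 counts.

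Genes were kept with the default filter of edgeR 4.0.16 (R 4.3.3), scaled by TMM (factors 0.903 to 1.11) and compared by its quasi-likelihood test with genotype as the only term, over 13537 genes, with Benjamini-Hochberg adjustment. Standard errors, intervals and adjusted p-values come from that fit unless another setting is named beside them, and its script was tested on simulated data. Each standard error is the size of the log2 fold change divided by the square root of the test's F value. The intervals were built from it with a t quantile, so both are approximate. The common biological coefficient of variation was 22.3%. Alternatives were other scalings and filters, DESeq2 1.42.0, limma-voom (limma 3.58.1), a 1.5-fold test, robust shrinkage, a replicate block and leaving out each library. Of 266 memberships in 21 gene lists, 265 matched a row, 5 by an older symbol. Some genes stand in more than 1 list (Spp1 and Sox9, for example, under periportal and bile duct cells). The enzymes and lists were chosen with earlier results of these data known. Named genes were, by rule, the 10 enzymes, Mdm2, Trp53, up to 4 called genes of each list (or its 2 most abundant where none was called) and the 5 genes most like the urea cycle average, and some of the genes so chosen are not reported here. Exceptions are named as chosen after their values were seen, as are Plbd2, Arg2 and Nr3c1. Figures were drawn with matplotlib 3.10.9.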

Additional observations from a re-analysis of the deposited data

How the results depend on the processing

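Under every alternative run, 0 of the 10 enzymes were called higher and 0 lower. Of 180 fold changes of single enzymes over 18 alternatives, 175 kept their direction and their side of the threshold, and 5 turned positive: Nags (0.0057) and Glud1 (0.075) under library totals, and Nags (0.052), Glud1 (0.12) and Hal (0.0057) under scaling on hepatocyte markers. Over all genes, library totals gave 1039 calls higher and 63 lower, and hepatocyte scaling gave 1038 and 60, against 692 and 110. DESeq2 gave 1214 and 377, limma-voom 1063 and 260, and the 1.5-fold test 115 and 12. Leaving out 1 library left an arm of 2 mice in each case and gave 18 to 525 calls higher and 1 to 101 lower. The lowest counts were those without LiK 2 (18 and 1), LiK 1 (26 and 5) and LiKM 2 (44 and 3). Without LiK 3 the counts were 264 and 47, and without LiKM 1 they were 308 and 68. Same-numbered mice did not deviate together in every pair (r = 0.27, -0.0003 and 0.13), which cannot show whether they share more than a number. With the replicate block, 166 genes were called lower and 0 enzymes, and the lowest adjusted p of an enzyme was 0.065 (Asl, edgeR), while the calls of Slc38a4, Sat1 and Gcgr were lost (adjusted p = 0.0508, 0.0614 and 0.066). The difference in summed share of the 10 enzymes ranged from -0.35 to -0.061 percentage points over the omissions of 1 library and was -0.42 of the TMM-scaled library size. Every enzyme had 1442 counts or more in every library, and 3 mice per genotype limit the precision.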
